A study of Arabidopsis thaliana with 12 samples.

Results

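Fibrillins are lipid-associated proteins of the chloroplast, and they are described here in stn7 mutant and wild-type (WT) Arabidopsis thaliana. Members were the genes of the family that have a probe annotated to that gene and no other, a rule that uses no measured value. Of 14 fibrillin loci 5 met it, among 3248 features tested in all. They are FBN2 (AT2G35490), FBN5 (AT5G09820), FBN6 (AT5G19940), FBN8 (AT2G46910) and FBN10 (AT1G51110), numbered by the usual names of the family. A further 6 loci (FBN1a, FBN1b, FBN3a, FBN3b, FBN7a and FBN7b) occurred only on probes annotated to several fibrillins, and FBN4, FBN9 and FBN11 were not analysed here.

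The series compared 6 samples titled stn7 with 6 titled WT, both of the Columbia-0 ecotype, on 1-channel arrays of total RNA. The labels give no allele, tissue, age or growth condition, and no treatment is named for either group. Of the 6 samples titled stn7, 5 carry the source name of the WT, and the groups follow the titles. Samples 1 and 2, 3 and 4, and 5 and 6 of a group deviated together from their group mean, with correlations between 0.188 and 0.632 over features, and each such couple was averaged to 1 replicate. For stn7 samples 1 and 2 this correlation of 0.188 was little above their highest with any other sample, 0.170 and 0.166. In both cases that other sample was the WT sample of the same number. For numbers 4, 5 and 6 the highest such correlation was likewise shared by the stn7 and WT samples of that number (0.159, 0.0963 and 0.106). For number 3 the values differed (0.139 in stn7, 0.146 in the WT). The groups therefore had 3 averaged replicates each. Nothing states that these came from separate plants, so the p-values measure the spread between these samples, which may be technical. No probe with an annotation entry carries STN7, so the labels could not be checked against the mutated gene. None of the leaf, root, seed or senescence markers had a probe of its own, so the tissue was not checked.

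Fibrillins, also called plastoglobulins, coat plastoglobules, the lipid droplets attached to thylakoid membranes that store plastoquinone, tocopherol and carotenoids, and some members sit in the stroma or on the thylakoids instead. STN7 is the thylakoid kinase of state transitions, which phosphorylates light-harvesting antenna proteins of photosystem II and is activated when the plastoquinone pool is reduced. FBN2 belongs to the plastoglobule core and has been linked with the FBN1 proteins to jasmonate production under light and cold stress. FBN5 is needed for plastoquinone synthesis and binds the solanesyl diphosphate synthases that make the side chain of that molecule.

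Of the 5 fibrillins, FBN2 fell in stn7 and the other 4 did not pass the test. FBN2 was 1.59-fold lower in stn7. FBN5 pointed the other way, 1.39-fold above the WT, and missed the threshold. FBN6 differed by 1.16-fold, and FBN8 and FBN10 by 1.01-fold and 1.02-fold. The 1 called member of 5 stands beside 15.2% of all features called in either direction, 8.68% lower and 6.53% higher in stn7, at an adjusted p of 0.05 in limma. The median difference of the 5 members was 0.03 log2, against 0.05 log2 over all features. Their median absolute difference was 0.21 log2, against 0.32 log2 over all features.

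FBN2 had normalized intensities between 0.227 and 0.351 in the 6 stn7 samples (median 0.303), against 0.405 to 0.556 in the 6 WT samples (median 0.464). All stn7 samples lay below all WT samples. The averaged replicates were at 0.343, 0.302 and 0.250 in stn7, against 0.483, 0.426 and 0.501 in the WT. On the log2 scale they averaged -1.76 ± 0.23 in stn7 and -1.09 ± 0.12 in the WT (SD, n = 3 each). The stn7 minus WT difference was -0.67 log2 (SE 0.17, 95% interval -1.06 to -0.27, limma, adjusted p = 0.0394). Within stn7, sample 5 was the lowest and sample 2 the highest. In bulk RNA, fewer cells that express a gene and less RNA per cell cannot be told apart, here and in every other result. By size of p FBN2 ranked 393 of 3248 features, and 17.9% of all features had a larger absolute difference.

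The FBN2 call depended on several choices. Without WT sample 4 the difference was -0.65 log2 (adjusted p = 0.0506), and without stn7 sample 3 it was -0.63 log2 (limma, adjusted p = 0.0539). With any 1 averaged replicate left out it lay between -0.77 and -0.55 log2 and was called in 0 of 6 fits. A block for the number of the averaged replicate left it at -0.67 log2 but not called (limma, adjusted p = 0.0589). In the deposited values before normalization, FBN2 was at 0.261 to 0.368 in stn7, against 0.380 to 0.475 in the WT, again without overlap. The difference there was -0.44 log2 (limma, adjusted p = 0.0901), where the median over all features was 0.19 log2. With stn7 sample 1 alone, the sample whose source name says mutant, it was -0.50 log2 (limma, adjusted p = 0.179, the lone sample assumed to vary like the WT). FBN2 was called in 17 of the 35 alternatives run, and the direction was negative in all 35.

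FBN5 had normalized intensities between 0.670 and 0.888 in the stn7 samples (median 0.831), against 0.490 to 0.623 in the WT samples (median 0.580). Every stn7 sample was above every WT sample, with stn7 samples 5 and 6 closest to the WT. The averaged replicates were at 0.878, 0.831 and 0.693 in stn7, against 0.610, 0.591 and 0.523 in the WT. The log2 means were -0.33 ± 0.18 in stn7 and -0.80 ± 0.12 in the WT (SD, n = 3 each). The difference of 0.47 log2 (SE 0.16, 95% interval 0.11 to 0.84) had an unadjusted limma p of 0.0178 and an adjusted p of 0.0801 over all features. At an unadjusted p under 0.05 stood 2 of the 5 members, FBN2 and FBN5, beside 32.4% of all features. In the deposited values the FBN5 difference was 0.63 log2 (limma, adjusted p = 0.0534), where the median over all features was 0.19 log2. There FBN5 was nearer the threshold than FBN2 (adjusted p = 0.0901), and neither was called. FBN5 also lay above the WT under all 35 alternatives, but it was called in 2 of them, both fits that take the 12 samples as separate.

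**Figure D1:**
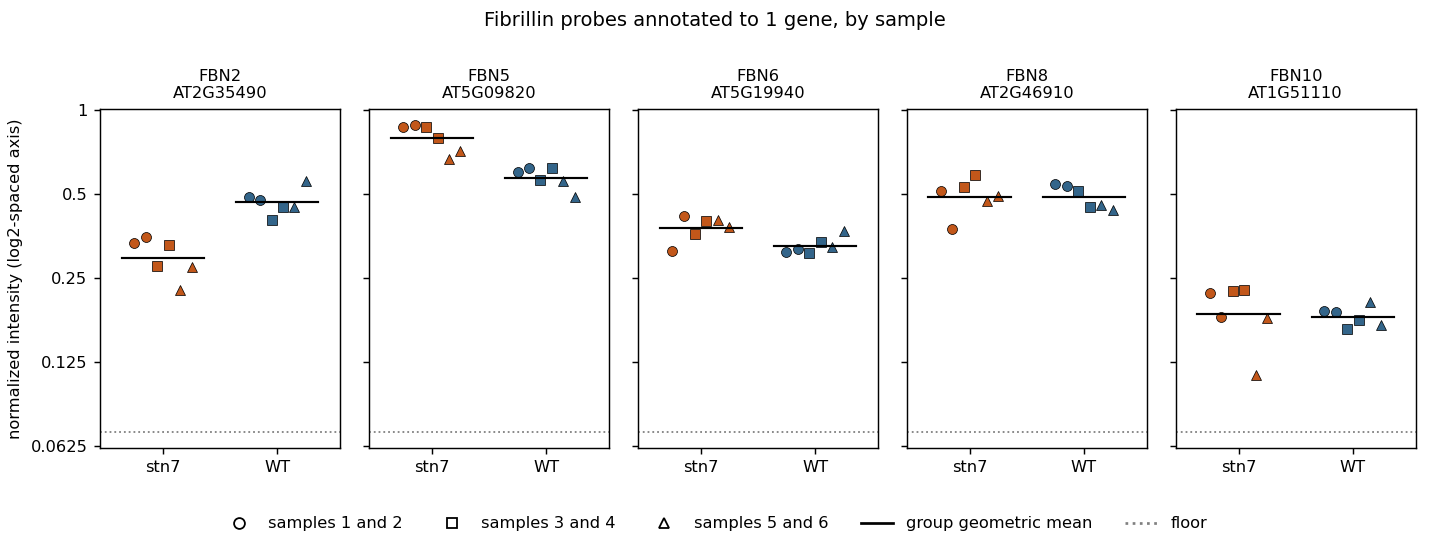
Normalized intensity of the 5 fibrillin genes with a probe of their own, on a log2-spaced axis, with stn7 left and WT right in each panel. Points are the 6 samples of a group, symbols mark the samples that were averaged, horizontal lines are geometric means and the dotted line is the floor of 0.0702. FBN2 and FBN5 show no overlap between the groups, in opposite directions, and FBN6, FBN8 and FBN10 overlap.

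The log2 ratio of FBN5 to FBN2 within an averaged replicate was 1.36, 1.46 and 1.47 in stn7, against 0.34, 0.47 and 0.06 in the WT. The stn7 replicates were thus close together (1.43 ± 0.06) and all above those of the WT (0.29 ± 0.21, SD, n = 3 each). The ratio was 2.20-fold higher in stn7 (log2 difference 1.14), with an exact two-sided permutation p of 0.1, the smallest that 3 against 3 can give. Within single samples the ratio ran from 1.27 to 1.65 log2 in stn7, against -0.18 to 0.47 log2 in the WT. In the deposited values the difference was 1.07 log2. The pair was chosen knowing that its members lay apart in opposite directions, so the ratio restates that observation and is no separate support for it.

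FBN6 is a chloroplast fibrillin tied to acclimation to photo-oxidative stress. Its normalized intensities were between 0.314 and 0.419 in the stn7 samples (median 0.391), against 0.307 to 0.369 in the WT samples (median 0.321). The samples overlapped, with stn7 samples 1 and 3 inside the WT range, and stn7 sample 1 lay 0.42 log2 below stn7 sample 2, with which it was averaged. The averaged replicates were at 0.363, 0.380 and 0.393 in stn7, against 0.314, 0.322 and 0.346 in the WT, and did not overlap. The difference was 0.21 log2 (SE 0.13, 95% interval -0.10 to 0.52, limma, adjusted p = 0.320). In the deposited values it was 0.44 log2, where the median over all features was 0.19 log2, and it was not called there either.

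Counted over the family, the averaged replicates of the groups did not overlap in 3 of the 5 genes (FBN2, FBN5 and FBN6), beside 38.7% of all features. The 6 single samples of each group did not overlap in 2 of the 5, FBN2 and FBN5, beside 22.0% of all features. With 5 members the counts are too small to be told apart from these shares.

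FBN8, a plastoglobule member, was at 0.375 to 0.586 in the stn7 samples (median 0.501), against 0.437 to 0.544 in the WT samples (median 0.485). The stn7 samples enclosed the WT range, with stn7 sample 2 the lowest and stn7 sample 4 the highest of all 12. The averaged replicates were at 0.438, 0.559 and 0.481 in stn7, against 0.540, 0.480 and 0.447 in the WT. The difference was 0.01 log2 (SE 0.16), with a 95% interval of -0.36 to 0.38 log2. Another scaling changed its sign: median-centred arrays gave -0.035 log2, and the intensities as deposited gave 0.20 log2. The medians over all features were -0.03 and 0.19 log2 in these scalings.

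FBN10, a fibrillin found with thylakoids, had values between 0.113 and 0.227 in the stn7 samples (median 0.201), against 0.164 to 0.206 in the WT samples (median 0.183). Both the lowest and the highest of the 12 samples were stn7 samples, number 5 and number 4. The averaged replicates were at 0.200, 0.227 and 0.142 in stn7, against 0.190, 0.171 and 0.187 in the WT. The log2 SD was 0.35 in stn7 and 0.08 in the WT (n = 3 each). The difference was 0.03 log2 (SE 0.20, 95% interval -0.43 to 0.49). In the deposited values it was 0.25 log2, where the median over all features was 0.19 log2. All 5 genes stayed above the floor of 0.0702, below which intensities were set to that value, in all 12 samples.

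**Figure D2:**
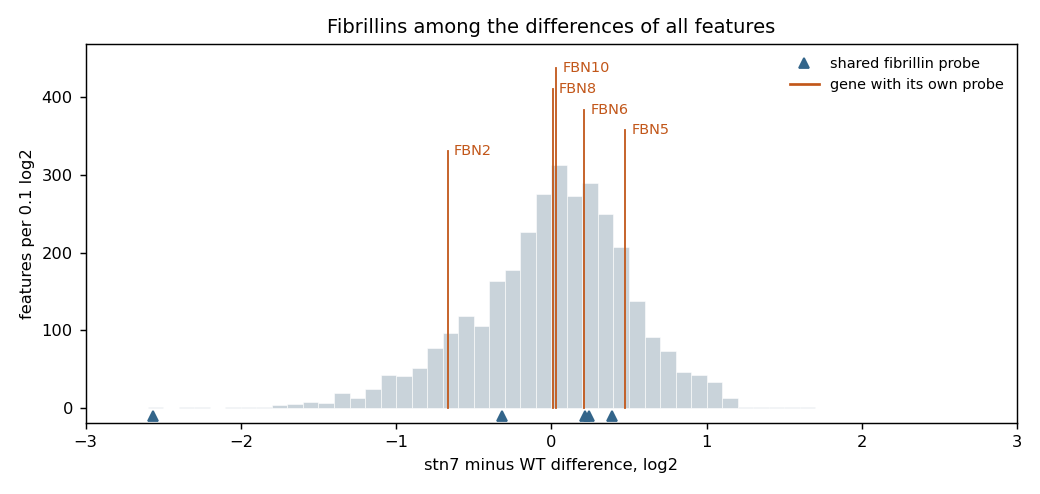
Histogram of the stn7 minus WT differences of all 3248 features (horizontal axis in log2, vertical axis in features per 0.1 log2). Lines mark the 5 fibrillin genes and triangles the 5 probes annotated to several fibrillins. The genes lie between -0.67 and 0.47 log2, and 1 shared probe lies at -2.57 log2, beyond every other feature at this floor.

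Differences on these arrays followed the probe number, and this touches each member. Probes were grouped in 48 sets, each of 6 consecutive numbers that recur periodically along the numbering, and the medians of the sets lay between -0.62 and 0.63 log2 (stn7 minus WT). FBN2 shared its set with 63 other features of median -0.15 log2, of which 9 were called lower and 1 higher, and 11 of the 63 lay below FBN2. FBN5 lay in a set of 66 other features of median 0.24 log2, with 5 called higher and 0 lower, and 7 of the 66 lay above FBN5. FBN2 and FBN5 thus both pointed the way their sets pointed, and beyond the set median. With each sample centred within the sets, FBN2 was at -0.44 log2 (SE 0.16, limma, adjusted p = 0.127). FBN5 was then at 0.25 log2 (SE 0.15, adjusted p = 0.335), and the ratio of FBN5 to FBN2 differed by 0.69 log2 (exact p = 0.1). Of the 5 fibrillins 0 were called after set centring, beside 5.67% of all features, and FBN2 alone had an unadjusted p under 0.05 (0.0224). What the probe number stands for is not stated, and how far it enters the FBN2 and FBN5 differences was not tested.

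For the other members set centring shifted the difference by less than 0.2 log2. FBN6 was at 0.03 log2 (SE 0.13) after it, against a set median of 0.17 log2. FBN8 moved to 0.15 log2 (SE 0.19), from a set with a median of -0.15 log2. FBN10 turned to -0.15 log2 (SE 0.19), from a set with a median of 0.21 log2. None of these 3 was called before or after.

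**Figure D3:**
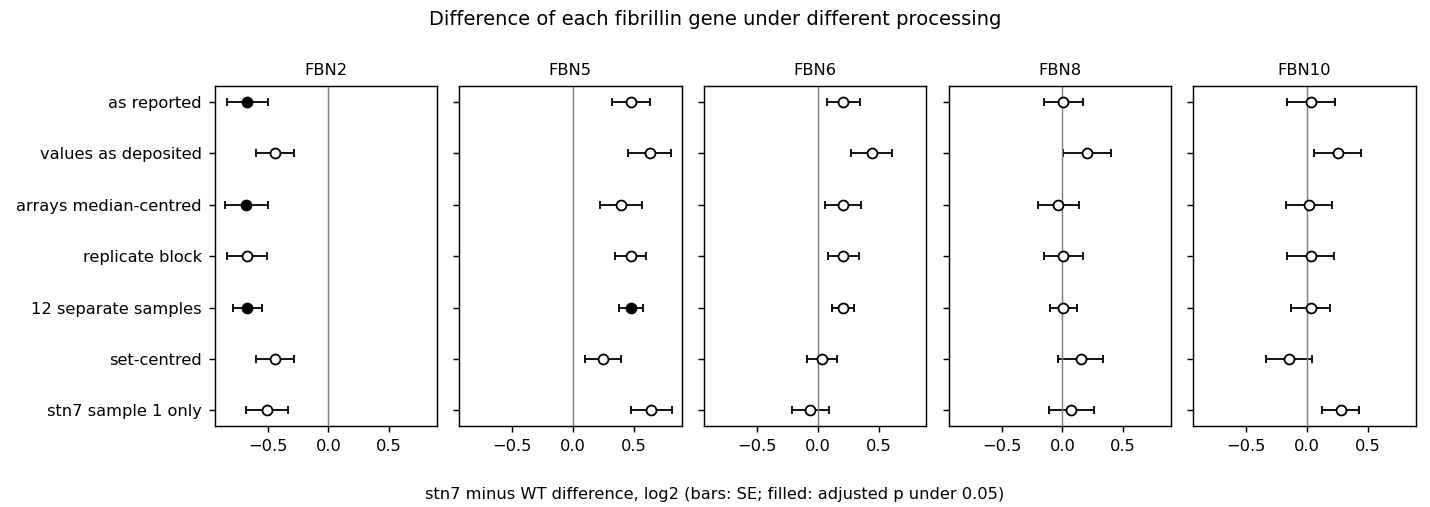
Difference of each fibrillin gene between stn7 and WT in log2 (horizontal axis) under 7 ways of processing (rows), with SE as bars and filled points where the adjusted limma p was under 0.05. FBN2 lies left of 0 and FBN5 right of 0 in every row shown, while FBN6, FBN8 and FBN10 change sign in at least 1 row.

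The rest of the family could be followed only through 5 probes annotated to several fibrillins and to no other gene, from which no single gene can be named. Probe 2870, annotated to FBN1a, FBN1b and FBN8 together, fell in stn7. It was the 1 called of these 5 probes, beside 15.2% of all features called in either direction. Its normalized intensities were 0.0702, 0.0833, 0.421, 0.283, 0.0702 and 0.0702 in stn7 samples 1 to 6, of which 3 were at the floor, against 0.618 to 0.862 in the WT samples (median 0.721). All stn7 samples lay below all WT samples, and stn7 samples 3 and 4 stood well above the other 4. The averaged stn7 replicates were at 0.0765, 0.345 and 0.0702, against 0.730, 0.677 and 0.782 in the WT. The difference was -2.57 log2 (SE 0.56, limma, adjusted p = 0.0275), a 5.93-fold lower mean whose size is set in part by the floor. With the floor at the 20th percentile in place of the 10th, the difference was -1.86 log2 (adjusted p = 0.0173). In the values as deposited the stn7 samples ran from 0.0193 to 0.469, against 0.582 to 0.840 in the WT.

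With this floor no feature of the array had a larger absolute difference than probe 2870. Without stn7 samples 3 and 4 it was -3.31 log2, but 3 of the 4 stn7 samples left were then at the floor, which sets this value and its spread, so no p is given. It was not called without any 1 of the other 5 averaged replicates (-2.66 to -2.18 log2, limma, adjusted p 0.0555 to 0.0794). After set centring it was -2.17 log2 (adjusted p = 0.0508). It was also not called with dim probes kept in the fit (adjusted p = 0.0781). Probe 2870 was called in 23 of the 35 alternatives run, among them all 12 fits without 1 sample, and the direction was negative in all 35. The own probe of FBN8, one of the 3 genes annotated to it, was at 0.01 log2 (95% interval -0.36 to 0.38) and was not called. Probe 1796, which is annotated to FBN1a and FBN1b among others, was not called either (-0.31 log2, SE 0.36). Which transcript probe 2870 measured was not tested.

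**Figure D4:**
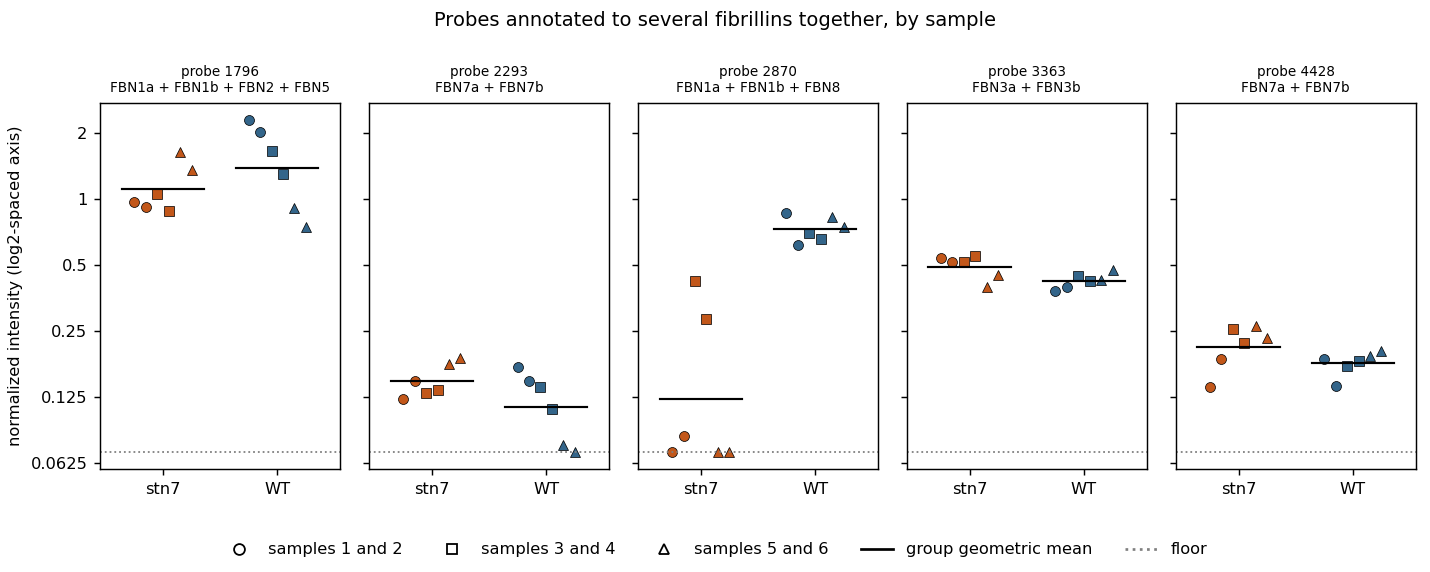
Normalized intensity of the 5 probes annotated to several fibrillins, on a log2-spaced axis, drawn like the plot of the single-gene probes, with the annotated genes above each panel. In probe 2870 the stn7 samples lie between 0.0702 and 0.421, against 0.618 to 0.862 in the WT, while the groups overlap in the other 4 probes.

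The other 4 shared probes were not called. Probe 1796, annotated to FBN1a, FBN1b, FBN2 and FBN5, ran from 0.879 to 1.64 in stn7, against 0.746 to 2.29 in the WT. Its averaged WT replicates were at 2.15, 1.47 and 0.823, with a log2 SD of 0.70, and the difference was -0.31 log2 (SE 0.36). The difference for FBN7a and FBN7b, a pair of plastoglobule members that share 2 probes, was 0.39 log2 (SE 0.30) in probe 2293 and 0.24 log2 (SE 0.20) in probe 4428. In probe 2293 WT sample 6 was at the floor. Probe 3363, annotated to FBN3a and FBN3b, differed by 0.22 log2 (SE 0.16). After set centring probe 2293 was at 0.79 log2 (SE 0.31, limma, adjusted p = 0.152), from a set with a median of -0.34 log2. Probes 1796, 4428 and 3363 were then at -0.0006, 0.18 and -0.05 log2, and none of these probes was called.

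Of 25 other proteins of the plastoglobule, 4 had a probe of their own. Of the 4, 0 were called, beside 15.2% of all features, and 2 had an unadjusted limma p under 0.05, beside 32.4%. With 4 genes these counts are too small to be told apart from those shares. AT3G24190, an ABC1-like kinase gene, was at 0.345 in stn7, against 0.218 in the WT (group geometric means; 0.66 log2, SE 0.21, limma, adjusted p = 0.0687). AT1G32220, a flavin reductase-related gene, was at 0.254 in stn7, against 0.149 in the WT (0.77 log2, SE 0.33, adjusted p = 0.150). AT3G27110, which encodes a plastoglobule metalloprotease, differed by 0.43 log2 (SE 0.19, adjusted p = 0.158). AT4G13200, a plastoglobule protein without a settled role, differed by -0.54 log2 (SE 0.27, adjusted p = 0.209). After set centring the differences of the 4 genes were 0.09, 0.14, 0.17 and -0.08 log2 in that order. Of 10 genes of plastoquinone and tocopherol synthesis, 9 of plastid jasmonate synthesis and the 3 thylakoid kinase and phosphatase genes, 0 had a probe of their own, so the partners of FBN5 in plastoquinone synthesis were not analysed here.

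Single-gene features were also ranked by the Pearson correlation of their log2 values with each fibrillin over the 12 samples, as a description. These correlations hold the difference between the groups, and averaged samples and probes of the same probe-number set share deviations. Most like FBN2 were AT4G27510 (r = 0.95), ATSPS4F, a sucrose phosphate synthase gene (r = 0.94), and AT2G46630 (r = 0.93), with stn7 minus WT differences of -1.32, -0.57 and -0.93 log2. Set-centred, these 3 correlations were 0.89, 0.89 and 0.80. Most like FBN5 were LrgB, a plastid glycolate and glycerate transporter gene (r = 0.96), AT1G01500 (r = 0.94) and AT5G19750 (r = 0.94), with differences of 0.44, 0.60 and 0.99 log2. Set-centred, they correlated with FBN5 at 0.83, 0.53 and 0.81. Among the genes named for FBN2 and FBN5, ATSPS4F, LrgB and AT1G01500 were not called (limma, adjusted p = 0.0542, 0.129 and 0.0760).

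For FBN6, FBN8 and FBN10 the highest correlations were lower. AT3G09490, AT5G48110 and AT1G58230 were closest to FBN6 (r = 0.85, 0.81 and 0.81). AT5G65250, AT5G66780 and AT1G50770 were closest to FBN8 (r = 0.87, 0.75 and 0.67). AT1G13370, ATATH8 and AT5G06990 were closest to FBN10 (r = 0.83, 0.82 and 0.80), and none of these 9 was called. Set-centred, the correlations were 0.70, 0.43 and 0.87 for FBN6, 0.34, 0.51 and 0.51 for FBN8, and 0.85, 0.78 and 0.93 for FBN10. Of the 15 genes named by likeness 0 lay in the probe-number set of their fibrillin.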

How the data were processed

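Total RNA of 12 samples was measured on 1-channel arrays, and precision is limited by the number of arrays. The authors deposited intensities on a linear scale. Their scanner, background correction and scaling are not stated, so the origin of the 4.66% to 6.58% of zeros per sample is unknown. Of 3439 probes 3437 had values: 692 were annotated to 1 gene, 869 to several and 1876 to none. Of the 692, 690 matched RefSeq (TAIR10.1).

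Members, gene lists, tests and alternatives were chosen with earlier results of these data known. Arrays were quantile-normalized (medians differed by up to 0.478 log2), floored at the 10th percentile (0.0702), and 188 probes at the floor in all samples left out. Log2 values of consecutive samples were averaged. All 3248 features were fitted with limma 3.58.1 (R 4.3.3), Benjamini-Hochberg adjusted, and tested on simulated data. Every fibrillin with its own probe is named, and of other lists the called members or the 3 with the smallest p. Of the plastoglobule list, the fourth measured gene, AT4G13200, is given as well. The 3 most correlated genes are named per fibrillin. Alternatives covered scaling, floor, filters, averaging, variance model, block, probe-number sets, source name and samples left out. Figures used matplotlib 3.10.9 in Python 3.11.15.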

Additional observations from a re-analysis of the deposited data

Results flagged for a closer look

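FBN10 in stn7 sample 5 had a normalized intensity of 0.113, far from the other 5 stn7 samples, which lay between 0.180 and 0.227. On the log2 scale the gap was 0.665 of the range of the group. It was the 1 such sample among 10 sets of 6 samples looked at (5 genes in 2 groups), of which chance marks about 5%. Without this sample FBN10 differed by 0.14 log2 and was not called either.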

How the results depend on the processing

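Against 494 features and 1 fibrillin (FBN2) called, 12 separate samples gave 1283 features and 2 fibrillins, with a replicate block 1442 and 2. FBN5 to FBN2 then differed by 1.14 log2 at an exact permutation p of 0.00216, the smallest that 6 against 6 can give. That p treats averaged samples as independent, and the pair was chosen knowing its opposite directions, so it is no separate support. Set centring gave 184 and 0, with a replicate block 117 and 0, and with sets begun 1 to 5 numbers earlier (added after seeing the data) 210, 208, 210, 213 and 200, with 0 fibrillins each. The source name, with 1 stn7 sample assumed to vary like the WT, gave 13 and 0. The deposited values and the replicate block gave 0 fibrillins. Leaving out 1 sample gave 440 to 492 features and 0 or 1 fibrillins, and 1 averaged replicate 37 (WT 2) to 339 (WT 3) and 0, with 72 (WT 1), 173 (stn7 1), 279 (stn7 3) and 296 (stn7 2) between. With fewer replicates power is lower.

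The replicate block ended the FBN2 call (adjusted p = 0.0589, limma) and no other call of a fibrillin probe. Same-numbered averaged replicates correlated at 0.171, 0.120 and 0.0901, all low but above 0. Single samples numbered 1, 2, 4, 5 and 6 had their highest correlation outside their couple with the same-numbered sample of the other group. The fit reported above did not pair the averaged replicates, and no label states whether the numbers pair samples. With set centring and a replicate block FBN2 was at -0.44 log2 (adjusted p = 0.0978).

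Signs turned only in differences that were not called. FBN8 was at -0.035 log2 with median centring, between -0.067 and 0.081 without 1 sample and between -0.087 and 0.087 without 1 averaged replicate. FBN10 was at -0.15 with set centring, with or without a replicate block, at -0.15, -0.14, -0.14, -0.12 and -0.14 with other set starts, between -0.08 and 0.14 without 1 sample and between -0.11 and 0.23 without 1 averaged replicate. FBN6 was at -0.060 by source name and at -0.017 and -0.0046 with sets begun 3 and 5 earlier. Probe 3363 was at -0.054 with set centring, with or without a block, and at -0.042, -0.022 and -0.011 with sets begun 1, 2 and 3 earlier. Probe 1796 was at 0.0045 and 0.016 with sets begun 1 and 2 earlier and between -0.67 and 0.0065 without 1 averaged replicate. Probe 4428 was at -0.36 by source name. The causes were not tested. The 5th percentile as floor was 0 and was not run. Signal over background is not known.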
